A study of Mus musculus with 12 samples.

Results

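A set of 10 genes of the immediate early response was followed through the first 2 days of dendritic cell culture: 6 subunits of the transcription factor AP-1 (Fos, Fosb, Fosl2, Jun, Junb and Jund), the zinc-finger factors Egr1 and Egr3, the nuclear protein gene Ier2 and the phosphatase gene Dusp1. They were taken by name and are 10 of the 47643 genes in the count tables. On GRCm38 (GENCODE M21) these protein-coding genes are Fos (chr12:85473890-85477273, plus strand), Fosb (chr7:19302696-19310051, minus strand), Fosl2 (chr5:32135801-32157842, plus strand), Jun (chr4:95049034-95052222, minus strand), Junb (chr8:84974484-84978718, minus strand), Jund (chr8:70698949-70700616, plus strand), Egr1 (chr18:34859823-34864984, plus strand), Egr3 (chr14:70077203-70082614, plus strand), Ier2 (chr8:84661331-84662852, minus strand) and Dusp1 (chr17:26505590-26562128, minus strand). Poly(A) RNA was sequenced in 12 libraries from bone-marrow monocytes of mice on a C57BL/6 background. Wild-type (WT) cells and cells labelled Nr4a3 knockout (KO) were each taken as sorted monocytes without culture, after 1 day and after 2 days of culture with GM-CSF and IL-4, the pair of cytokines commonly used to turn monocytes into dendritic cells. The series asks how NR4A3, an orphan nuclear receptor, bears on that differentiation. Each of the 6 groups held 2 libraries, which the labels assign to independent experiments. Day 1 is the time in the labels, but the files of both day 1 replicate 2 libraries are named 16 h. No source used here gives the knockout allele, the age of the mice or the number of animals behind a library.

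AP-1 is a dimer in which a FOS family protein pairs with a JUN family protein, or JUN proteins pair with each other, on short DNA elements. Immediate early genes are switched on by growth factors, cytokines or stress without new protein synthesis, and many of their transcripts are short-lived. In monocytes and macrophages AP-1 and EGR factors act downstream of MAP kinases, and DUSP1 removes phosphate from those kinases.

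The libraries held between 5905266 and 18447405 reads assigned to genes, and levels are given as CPM, read counts scaled to a common library total after allowing for composition. Summed dendritic cell markers stood at 281 to 327 CPM in the 4 monocyte libraries, at 10475 to 13497 CPM after 1 day and at 33182 to 37498 CPM after 2 days. Nr4a3, the targeted gene, was read at 0 to 0.93 CPM in monocytes. At day 1 it stood at 16.5 and 10.4 CPM in WT and at 6.58 and 0 CPM in KO, and at day 2 at 1287 and 1358 CPM in WT and at 39.0 and 19.3 CPM in KO. The exons that the allele lacks are not known here, so reads of the gene in KO libraries check the label only in part. A pair of libraries stood apart from their partners. WT monocyte replicate 2 had 8.30% of its gene reads in ribosomal protein genes, against 3.71% to 4.61% in the other monocyte libraries, and 4673 CPM of summed neutrophil markers, against 1536 to 2554 CPM. The library labelled KO day 1 replicate 1 lay at 1.59 on the first principal component, where the other day 1 libraries lay between 38.4 and 46.7, and held 16812 CPM of summed classical monocyte markers, against 7751 to 10831 CPM. The part of these differences in the results was not tested. In all 12 libraries summed T and NK cell markers stood at no more than 8.86 CPM, B cell markers at no more than 18.1 CPM and stromal markers at no more than 14.1 CPM. Other lists were not as low. Neutrophil markers stood at 572 to 4673 CPM over the 12 libraries, and plasmacytoid dendritic cell markers at 575 to 676 CPM in monocytes. Erythroid markers reached 179 CPM in WT monocyte replicate 2. Both day 2 replicate 1 libraries read Xist at 885 (WT) and 794 (KO) CPM, and the other 10 libraries at no more than 1.01 CPM. Ddx3y stood at 0 (WT) and 0.17 (KO) CPM in the day 2 replicate 1 libraries and at 34.5 to 98.2 CPM in the other 10. By these sex-linked genes the day 2 replicate 1 libraries were female and the other 10 male. The part of sex in the results was not tested. By the dates in the file names, monocytes and day 1 cells came from the same experiments and day 2 cells from others, and the effect of the second day cannot be told apart from that of the experiment. In these bulk samples fewer cells of a type and less RNA per cell cannot be told apart.

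Most of the 10 genes stood lower in culture than in sorted monocytes, by steps of unlike size and from unlike levels. Jund was higher in culture, no change in Fosl2 was detected, and Egr3 had too few reads to test. In WT cells at day 1, 7 of the 9 members with enough reads to test fell and 1 rose against monocytes, where 10.1% of the 14034 genes tested fell and 11.4% rose (21.5% in either direction). The median log2 fold change of the 9 was -2.62, against 0.06 over all genes tested. At day 2, 6 fell and 1 rose in WT, against 9.89% and 12.7% of all genes (22.6% in either direction), with a median of -3.17 against 0.09. In KO cells 5 fell and 0 rose at day 1, against 6.14% and 7.7% of all genes (13.8% in either direction), with a median of -2.33 against 0.11. KO cells at day 2 had 7 members lower and 1 higher than KO monocytes, against 7.57% and 9.95% of all genes (17.5% in either direction), with a median of -2.82 against 0.08. In each of these 4 comparisons both cultured libraries lay below both monocyte libraries for 7 of the 9 members and above them for 1, and they overlapped for 1. Over all genes tested, 24.5%, 27.2%, 27.4% and 32.2% lay below in the order WT day 1, WT day 2, KO day 1 and KO day 2, and 30.8%, 35.6%, 32.4% and 37.5% above, which comes to 55.3%, 62.8%, 59.8% and 69.7% in either direction. Calls are from edgeR's quasi-likelihood test on all 12 libraries, with Benjamini-Hochberg adjustment over the 14034 genes and a threshold of 0.05. Of the 32 member calls in the comparisons by day, 14 held without each single library of their comparison and under every other alternative run. Leaving out both libraries that stood apart gave 8, 7, 7 and 8 member calls in WT day 1, WT day 2, KO day 1 and KO day 2, in place of 8, 7, 5 and 8, where 20.1%, 17.9%, 22.2% and 25.8% of all genes were then called. Fitted on the WT monocyte and WT day 1 libraries alone, 4 members and 11.8% of all genes were called at day 1, and Jun, Junb, Jund and Egr1 were not (adjusted p = 0.0541 to 0.151).

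**Figure D1:**
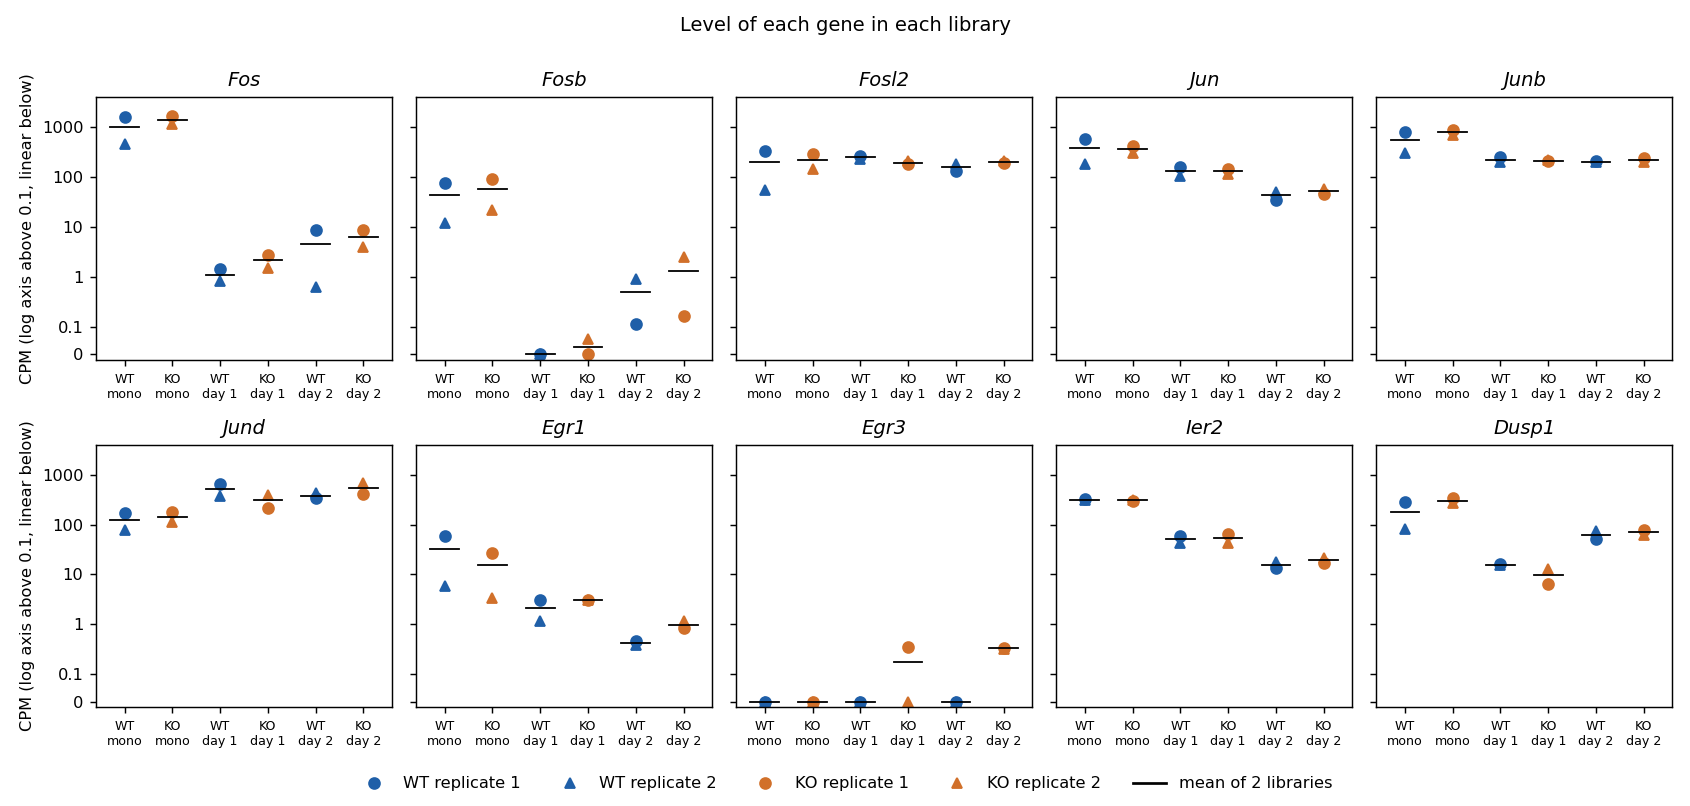
Level of each of the 10 genes in each library, in CPM on an axis that is logarithmic above 0.1 and linear below; blue is WT, orange is KO, circles are replicate 1, triangles replicate 2, and black lines the mean of 2 libraries. Fos lies at 462 to 1676 CPM in monocytes and between 0.63 and 8.84 CPM in culture, the cultured libraries lie within the monocyte range for Fosl2, and Egr3 is at 0 in 9 of 12 libraries.

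Promoter sequences are shown for Fos and Fosb, the members with the deepest fall, and for Dusp1, which was lowest at day 1 and higher again at day 2. RefSeq's table of promoters on GRCm38.p6 matched 7 of the 10 members, all but Egr1, Egr3 and Ier2. The 250 bases before each start were searched on both strands. The stretches printed end at the end of the window, or before it where the window runs into a GENCODE exon of the same gene. GENCODE's Dusp1 begins further upstream, at chr17:26562128 on the minus strand, so the Dusp1 stretch lies within the annotated gene. They lie at chr12:85473640-85473889 on the plus strand, chr7:19310052-19310295 on the minus strand and chr17:26508520-26508722 on the minus strand. Capitals mark a TATAAA match in Fos, a GCGGGGGCG match (a form of the EGR element) in Fosb and a TGACGTCA match (the cyclic AMP response element) in Dusp1.
Fos: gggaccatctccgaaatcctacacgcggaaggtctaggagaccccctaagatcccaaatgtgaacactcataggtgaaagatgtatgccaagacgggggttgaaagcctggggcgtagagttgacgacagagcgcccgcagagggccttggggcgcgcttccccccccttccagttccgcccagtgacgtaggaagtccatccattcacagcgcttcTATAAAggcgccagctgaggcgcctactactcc
Fosb: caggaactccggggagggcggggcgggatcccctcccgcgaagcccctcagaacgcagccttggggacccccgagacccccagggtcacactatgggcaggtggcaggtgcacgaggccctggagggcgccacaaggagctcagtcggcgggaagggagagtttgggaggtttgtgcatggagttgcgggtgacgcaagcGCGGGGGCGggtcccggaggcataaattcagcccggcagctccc
Dusp1: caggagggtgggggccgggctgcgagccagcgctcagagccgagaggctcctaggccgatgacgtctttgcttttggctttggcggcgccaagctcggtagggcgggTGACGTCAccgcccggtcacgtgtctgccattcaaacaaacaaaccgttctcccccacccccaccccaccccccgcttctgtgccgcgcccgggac
TATAAA stood in 1 of the 7 members and in 12.97% of the 27025 promoters of the table. GCGGGGGCG or GCGTGGGCG stood in 2 of 7, Fosb and Fosl2, and in 3.05% of all. TGACGTCA stood in 1 of 7 and in 1.62% of all. The CArG box bound by SRF (in 1.40% of all promoters), the AP-1 element TGANTCA (6.87%) and AAAGGTCA, the element bound by NR4A receptors (1.31%), were in 0 of the 7 windows. Sites further from the start and the 3 members without a match were not searched, so this does not show that the genes lack these elements. The whole Fosl2 window lies in an exon that GENCODE annotates from an earlier start, so the window may not be its promoter. The Jund window ends at chr8:70697738, before the GENCODE start of the gene at 70698949, and may not be its promoter either.

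Fos, the founding member of its family, stood at 1583 and 462 CPM in WT monocytes and at 1676 and 1170.0 CPM in KO monocytes. At day 1 it stood at 1.40 and 0.82 CPM in WT and at 2.77 and 1.48 CPM in KO. At day 2 the values were 8.51 and 0.63 CPM in WT and 8.84 and 4.01 CPM in KO. Every cultured library lay below every monocyte library. The log2 fold change at day 1 was -9.83 ± 1.21 (SE, n = 2 libraries per group, edgeR adjusted p = 0.000627) in WT and -9.41 ± 1.17 (adjusted p = 0.000922) in KO. At day 2 it was -7.79 ± 1.10 (adjusted p = 0.000835) in WT and -7.82 ± 1.09 (adjusted p = 0.00106) in KO. All 4 calls held under every alternative run. Single libraries moved the size in 3 of them: the WT day 1 value was -8.67 without WT monocyte replicate 1 and -10.50 without replicate 2. The WT day 2 value was -6.63 and -8.46 without those, and -10.65 and -6.92 without WT day 2 replicate 1 and 2. The KO day 2 value was -8.45 without KO day 2 replicate 1. Within the WT day 2 pair Fos differed by -3.43 on the log2 scale between replicate 2 and replicate 1, and 0.420% of genes tested differed more.

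Fosb, which like Fos cannot bind DNA without a JUN partner, was lower by at least 353-fold at day 1 in WT against the mean of the monocyte libraries. Its monocyte values were 75.0 and 11.9 CPM in WT and 91.7 and 21.8 CPM in KO. At day 1 both WT libraries had 0 reads against 1092 in monocytes, which with 3 reads over the group as the limit of a count of 0 gives that bound. It covers counting error only, not the spread between the monocyte libraries. In KO 1 read at day 1 stood against 1592 in monocytes, a ratio of 1690 with a 95% exact interval of 303 to 66778 that covers counting error only. The 4 day 1 libraries thus held 1 read of the gene in all, and both falls passed the test (edgeR adjusted p = 0.00408 in WT and 0.00507 in KO). At day 2 it stood at 0.12 and 0.89 CPM in WT and at 0.17 and 2.45 CPM in KO. The log2 fold change from monocytes was then -6.45 ± 1.37 (edgeR adjusted p = 0.00932) in WT and -5.26 ± 1.22 (adjusted p = 0.0167) in KO. The day 1 calls held under every alternative. The WT day 2 call was lost without WT day 2 replicate 1 (-5.62, adjusted p = 0.0562), and the KO day 2 call without KO monocyte replicate 1 or KO day 2 replicate 1 (-3.93 and -4.50, adjusted p = 0.0834 to 0.0989). Without the other libraries compared the WT value was -4.56 (WT monocyte replicate 1), -7.26 (WT monocyte replicate 2) and -8.46 (WT day 2 replicate 2), and the KO value -5.95 (KO monocyte replicate 2) and -8.34 (KO day 2 replicate 2). Fitted on only the KO monocyte and KO day 2 libraries with the replicate number as a block, the KO day 2 call was lost too (-4.79, adjusted p = 0.0524).

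Fosl2, which codes for FRA-2, a FOS family protein without the strong activation domain of FOS, was the FOS family member with no detected change in culture. It stood at 338 and 55.5 CPM in WT monocytes, at 269 and 230 CPM after 1 day and at 135 and 186 CPM after 2. In KO the values were 284 and 148 CPM in monocytes, 179 and 208 CPM after 1 day and 188 and 213 CPM after 2. Culture and monocyte values overlapped in both genotypes. Against WT monocytes the log2 fold change was 0.34 (95% confidence interval -1.04 to 1.72) at day 1 and -0.29 (-1.68 to 1.09) at day 2, and in KO it was -0.16 (-1.53 to 1.22) and -0.10 (-1.48 to 1.28). The WT values turned on which WT monocyte library was kept. Without replicate 1 they were 2.19 at day 1 and 1.56 at day 2, and without replicate 2, the one that stood apart, -0.47 and -1.09.

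Per length, the FOS family had another main transcript and a lower sum in culture. Levels here are CPM per kilobase of annotated exon. Fos made up 94.9% ± 1.97 (SD, n = 2) of the family sum of Fos, Fosb, Fosl1 and Fosl2 in WT monocytes and 95.3% ± 1.53 in KO monocytes. At day 1 Fosl2 made up 90.5% ± 1.13 in WT and 90.8% ± 3.47 in KO, and at day 2 88.2% ± 13.3 and 87.1% ± 5.26. The sum went from 462 ± 365 CPM per kilobase in WT monocytes to 28.5 ± 3.48 at day 1 and 18.7 ± 1.44 at day 2, and from 636 ± 170 to 22.1 ± 3.14 and 23.8 ± 0.67 in KO. The leading gene was Fos in each of the 4 monocyte libraries and Fosl2 in each of the 8 cultured ones, while the CPM of Fosl2 itself showed no detected rise.

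**Figure D2:**
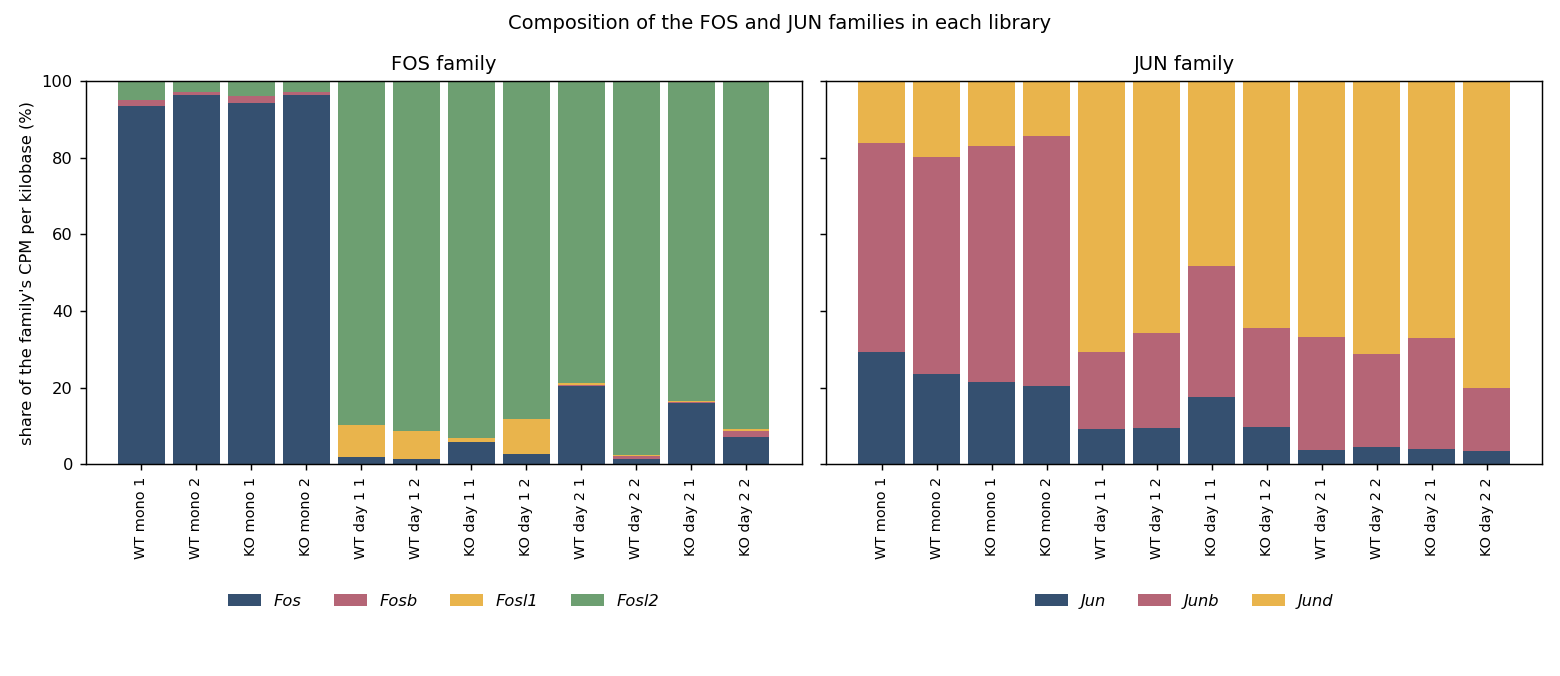
Share of each gene in the summed CPM per kilobase of its family, in percent, for each of the 12 libraries; the left panel is the FOS family with Fosl1 added, the right panel the JUN family. Fos makes up 93.5% to 96.3% of its family in the monocyte libraries and Fosl2 78.8% to 97.6% in the cultured ones, while Jund goes from 14.5% to 20.0% of its family in monocytes to 48.4% to 80.0% in culture.

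Jun, the JUN family member with the strongest activating role, stood at 592 and 179 CPM in WT monocytes and at 426 and 306 CPM in KO monocytes. At day 1 the values were 160 and 104 CPM in WT and 147 and 115 CPM in KO, and at day 2 35.0 and 51.0 CPM in WT and 44.9 and 58.4 CPM in KO. Each stage lay wholly below the one before it in both genotypes. At day 2 the log2 fold change from monocytes was -3.17 ± 0.53 (edgeR adjusted p = 0.00211) in WT and -2.82 ± 0.52 (adjusted p = 0.00452) in KO, and both calls held under every alternative. The WT value was -2.04 without WT monocyte replicate 1 and -3.80 without replicate 2. At day 1 it was -1.55 ± 0.50 (adjusted p = 0.0478) in WT and -1.48 ± 0.49 (adjusted p = 0.0716) in KO. The WT call at day 1 was lost without any single library but WT monocyte replicate 2 (-0.42 to -1.91, adjusted p = 0.0528 to 0.425), and without that one it was -2.20. With the replicate number as a block the KO value was -1.48 (adjusted p = 0.0495), and with the experiment as a block -1.47 (adjusted p = 0.00960).

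Junb, which pairs with FOS proteins but activates more weakly than JUN, was lower in culture by a smaller step. It stood at 799 and 309 CPM in WT monocytes and at 877 and 709 CPM in KO monocytes. At day 1 the values were 250 and 197 CPM in WT and 206 and 218 CPM in KO, and at day 2 207 and 200.04 CPM in WT and 243 and 198 CPM in KO. The 8 cultured libraries lay between 197 and 250 CPM, below all 4 monocyte libraries. The log2 fold change at day 1 was -1.31 ± 0.40 (edgeR adjusted p = 0.0393) in WT and -1.90 ± 0.40 (adjusted p = 0.0120) in KO, and at day 2 -1.45 ± 0.40 (adjusted p = 0.0253) and -1.85 ± 0.40 (adjusted p = 0.0105). Each of these calls was lost without some single libraries: 8 of 12 for WT day 1 (adjusted p up to 0.279) and 3 of 12 for each of WT day 2 (0.108 to 0.151), KO day 1 (0.0518 to 0.0826) and KO day 2 (0.0525 to 0.0912). WT monocyte replicate 1 was among them for the WT comparisons, with -0.44 and -0.58 in its absence, and KO monocyte replicate 1 for the KO comparisons. Fitted on only the libraries compared with the replicate number as a block, the WT day 2 call was lost (-1.31, adjusted p = 0.135).

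Jund, the JUN family member that is broadly present in resting cells, was the one member called higher against monocytes. It stood at 170 and 79.3 CPM in WT monocytes and at 174 and 114 CPM in KO monocytes. At day 1 it stood at 642 and 381 CPM in WT and at 212 and 397 CPM in KO, and at day 2 at 339 and 423 CPM in WT and at 408 and 695 CPM in KO. Each cultured library lay above each monocyte library, the nearest being KO day 1 replicate 1, which stood apart. In WT the log2 fold change was 2.03 ± 0.49 (edgeR adjusted p = 0.0150) at day 1 and 1.61 ± 0.48 (adjusted p = 0.0361) at day 2. In KO it was 1.08 ± 0.48 (adjusted p = 0.158) at day 1 and 1.93 ± 0.49 (adjusted p = 0.0208) at day 2. Without both libraries that stood apart the KO day 1 value was 1.39 (adjusted p = 0.0434) and the WT day 2 value 1.11 (adjusted p = 0.130). Without WT monocyte replicate 1 the WT values were 2.71 at day 1 and 2.29 at day 2. Fitted on only the WT monocyte and WT day 2 libraries, the WT day 2 call was lost (1.59, adjusted p = 0.0922), as with the replicate number as a block besides (1.68, adjusted p = 0.0570). Single libraries ended the WT day 1 call in 2 cases, WT monocyte replicate 2 and WT day 1 replicate 1 (adjusted p = 0.0746 to 0.104), the WT day 2 call in 5 (0.0520 to 0.172) and the KO day 2 call in 3 (0.0709 to 0.179).

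In the JUN family the order of the members per length turned over while the sum did not fall as in the FOS family. Junb made up 55.6% ± 1.23 (SD, n = 2) of the CPM per kilobase in WT monocytes and 63.4% ± 2.62 in KO monocytes, where Jund made up 18.02% ± 2.74 and 15.7% ± 1.71. At day 1 Jund made up 68.3% ± 3.48 in WT and 56.5% ± 11.4 in KO, and at day 2 69.0% ± 3.02 and 73.6% ± 9.05. Jun went from 26.4% ± 3.97 and 20.9% ± 0.90 in monocytes to 4.04% ± 0.62 and 3.69% ± 0.25 at day 2. The family sum stood at 437 ± 281 CPM per kilobase in WT monocytes, 445 ± 139 at day 1 and 330 ± 37.0 at day 2, and at 546 ± 104, 316 ± 74.8 and 443 ± 111 in KO. Within each genotype the sums of the stages overlapped, except that both KO day 1 libraries lay below both KO monocyte libraries. Between genotypes at the same stage they overlapped in monocytes and at day 1. At day 2 both WT libraries (304 to 357 CPM per kilobase) lay below both KO libraries (364 to 521), a difference that was not tested. Jun, Junb and Jund each overlap a gene on the opposite strand (Junos, Prdx2 and Gm11175), and the stranded counts were used to keep them apart.

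**Figure D3:**
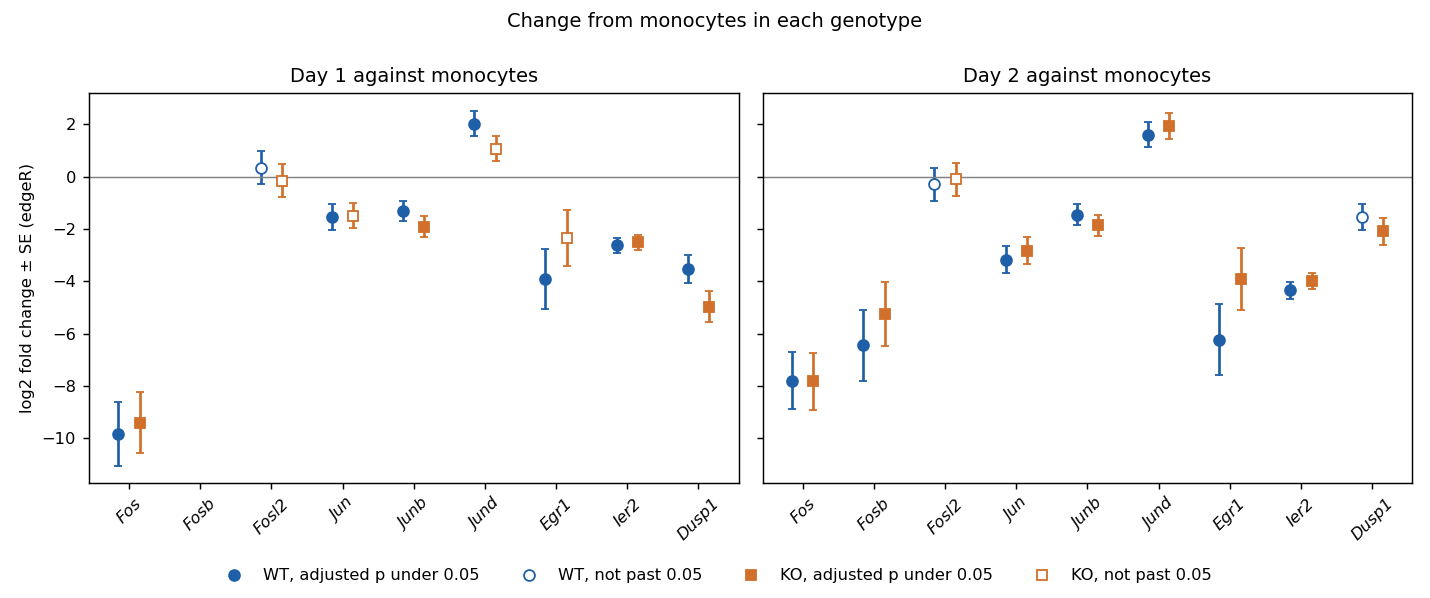
Log2 fold change from monocytes with its standard error, for the tested genes at day 1 (left) and day 2 (right); blue circles are WT and orange squares KO, and filled symbols passed an adjusted p of 0.05. Fosb at day 1 is not drawn, since its day 1 libraries held 1 read in all; Fos has the lowest values, and Jund is the one gene with filled symbols above 0.

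Egr1, a zinc-finger factor induced by growth factor and cytokine signals, was low and uneven in monocytes. It stood at 58.5 and 5.80 CPM in WT monocytes and at 27.5 and 3.33 CPM in KO monocytes, so that replicate 2 was the lower library in both genotypes. At day 1 the values were 3.14 and 1.14 CPM in WT and 3.03 and 3.06 CPM in KO, and at day 2 0.46 and 0.38 CPM in WT and 0.83 and 1.15 CPM in KO. All cultured libraries lay below all monocyte libraries of their genotype. The WT log2 fold change was -3.91 ± 1.13 (edgeR adjusted p = 0.0333) at day 1 and -6.22 ± 1.36 (adjusted p = 0.00871) at day 2, and the KO change -2.33 ± 1.06 (adjusted p = 0.168) and -3.91 ± 1.19 (adjusted p = 0.0454). The WT day 1 call was lost without WT monocyte replicate 1 or either WT day 1 library (-1.41 to -4.82, adjusted p = 0.0993 to 0.316). The WT day 2 call was lost without either WT day 2 library (adjusted p = 0.0520 to 0.0637), and the KO day 2 call without any of 9 libraries, KO monocyte replicate 1 among them (-1.73 to -4.21, adjusted p = 0.0515 to 0.371). Without WT monocyte replicate 2 the WT day 1 value was -4.80, the WT day 2 value was -3.73 and -7.11 without WT monocyte replicate 1 and 2, and the KO day 2 value was -4.74 without KO monocyte replicate 2. On only the KO monocyte and KO day 2 libraries the KO day 2 call was lost (-3.91, adjusted p = 0.0559), as with the replicate number as a block besides (-3.15, adjusted p = 0.0851).

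Egr3, which is related to Egr1 in its zinc fingers, had too few reads to test. It had 4 reads in KO day 1 replicate 1, 2 and 4 reads in the KO day 2 libraries and 0 in the other 9 libraries. A count of 0 allows up to 3 reads, which is 0.163 to 0.508 CPM without composition scaling over the 12 libraries, so a difference between genotypes was not detectable at this depth. Every read of the gene came from a library labelled KO.

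Ier2, a short-lived nuclear protein gene of the growth factor response, fell stepwise, with replicates close to each other. It stood at 319 and 305 CPM in WT monocytes and at 303 and 308 CPM in KO monocytes. At day 1 it stood at 58.0 and 43.1 CPM in WT and at 63.6 and 43.5 CPM in KO, and at day 2 at 13.2 and 17.6 CPM in WT and at 17.3 and 21.2 CPM in KO. Each stage lay below the one before it, and WT monocyte replicate 2, the library that stood apart, was near its partner (log2 difference -0.06, against -3.30 to -1.10 for the other 8 tested members). The log2 fold change at day 1 was -2.62 ± 0.30 (edgeR adjusted p = 0.000428) in WT and -2.51 ± 0.30 (adjusted p = 0.000700) in KO, and at day 2 -4.34 ± 0.32 (adjusted p = 2.74e-05) and -3.98 ± 0.32 (adjusted p = 4.70e-05). These 4 calls held under every alternative run.

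Dusp1, the phosphatase gene that switches off p38 and JNK kinases, fell to its lowest level at day 1 and was higher again at day 2. It stood at 277 and 81.7 CPM in WT monocytes and at 334 and 266 CPM in KO monocytes. At day 1 the values were 16.0 and 15.2 CPM in WT and 6.49 and 12.6 CPM in KO, and at day 2 51.4 and 72.7 CPM in WT and 78.0 and 63.0 CPM in KO. The 3 stages did not overlap in either genotype. At day 1 the log2 fold change from monocytes was -3.52 ± 0.55 (edgeR adjusted p = 0.00189) in WT and -4.96 ± 0.59 (adjusted p = 0.000715) in KO, and both calls held under every alternative. The WT value was -2.37 without WT monocyte replicate 1 and -4.19 without replicate 2. At day 2 it was -1.53 ± 0.51 (adjusted p = 0.0515) in WT and -2.09 ± 0.51 (adjusted p = 0.0187) in KO. Without WT monocyte replicate 2, which stood apart, the WT day 2 value was -2.18 (adjusted p = 0.00360), and without WT monocyte replicate 1 it was -0.37 (adjusted p = 0.464). The KO day 2 call was lost without any 1 of the 4 libraries compared (adjusted p = 0.0628 to 0.122). Dusp1 overlaps Ergic1 and Gm8225 on the opposite strand.

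Between day 1 and day 2, 1 of the 9 tested members fell (Ier2) and 1 rose (Dusp1) in each genotype. In WT 3.51% of all genes tested fell and 4.67% rose (8.19% in either direction), and in KO 0.542% fell and 1.5% rose (2.05%). In WT both day 2 libraries lay below both day 1 libraries for 4 members and above them for 2, against 29.5% and 31.4% of all genes (61% in either direction). In KO they lay below for 3 and above for 4, against 26.3% and 27.2% (53.5%). Ier2 fell by 1.71 ± 0.29 on the log2 scale in WT (edgeR adjusted p = 0.00881) and by 1.47 ± 0.29 in KO (adjusted p = 0.0303). Dusp1 rose by 1.99 ± 0.52 in WT (adjusted p = 0.0412) and by 2.87 ± 0.54 in KO (adjusted p = 0.0245). Jun had -1.62 ± 0.50 in WT (adjusted p = 0.0729) and -1.34 ± 0.49 in KO (adjusted p = 0.189). Fitted on only the libraries compared, both KO calls were lost (adjusted p = 0.140 for Ier2 and 0.0840 for Dusp1). Each of the 4 calls was lost without some single libraries. Ier2 was lost without WT day 1 replicate 1 or WT day 2 replicate 1 in WT (adjusted p = 0.0796 to 0.104) and without any of 6 libraries in KO (0.0541 to 0.251). The Dusp1 call was lost without any 1 of 8 libraries in WT (0.0548 to 0.212) and without any 1 of the 4 compared in KO (0.0521 to 0.0985).

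Monocytes and day 1 cells can also be compared within an experiment, as the log2 ratio of CPM with 0.1 CPM added. In the experiment of replicate 1 the WT ratio was -10.04 for Fos, -1.89 for Jun, -1.67 for Junb, 1.91 for Jund, -2.46 for Ier2 and -4.11 for Dusp1. In that of replicate 2 it was -8.98, -0.79, -0.65, 2.26, -2.82 and -2.42 in the same order. Every one of these members thus had the same direction in both experiments, as it had in KO. Their day 1 and monocyte libraries did not overlap, which fixes that direction, so it adds no separate support. Of all genes tested, 55.3% in WT and 59.8% in KO did not overlap either. Fosl2 had opposite signs, with -0.33 and 2.05 in WT and -0.66 and 0.49 in KO. Egr1 had -4.18 and -2.25 in WT and -3.14 and -0.12 in KO.

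No member had a called difference between KO and WT at any stage. Nor did Nr4a3 itself at day 2, with a log2 fold change of -5.51 ± 1.36 (edgeR adjusted p = 0.389), so a call missed at this replication does not show that the genotypes were alike. In monocytes and at day 1, 0 of the 9 tested members and 0% of all genes passed, and at day 2 0 members and 0.0998% of all genes, by edgeR with adjustment over all genes. At an unadjusted p under 0.05 the numbers of all genes were 557, 252 and 444, and DESeq2 called 0 members at each stage. Of the members in monocytes, Junb had a log2 fold change of KO over WT of 0.52 (95% confidence interval -0.35 to 1.38), Dusp1 0.74 (-0.35 to 1.83) and Fos 0.48 (-1.30 to 2.25), and the KO and WT libraries overlapped for all 9, where 10.9% of all genes lay wholly below and 13.3% above (24.2% in either direction). At day 1 both KO libraries lay above both WT libraries for Fos (0.90, interval -1.31 to 3.12) and below them for Fosl2 (-0.37, -1.75 to 1.01) and Dusp1 (-0.70, -1.82 to 0.43), where 9.06% of all genes lay wholly below and 10.3% above (19.4%). At day 2 both KO libraries lay above both WT libraries for Fosl2 (0.32, -1.06 to 1.70) and Egr1 (1.24, -1.87 to 4.36), where 20.6% of all genes lay wholly below and 17.6% above (38.3%). The narrowest intervals of the 9 were those of Ier2, with -0.65 to 0.59 in monocytes, -0.54 to 0.71 at day 1 and -0.32 to 0.97 at day 2, so that a difference of 2-fold between genotypes lies outside them. Jund at day 2 had 0.53 (-0.51 to 1.58). Fitted on those 4 libraries alone with the replicate number as a block, Jund had 0.49 (adjusted p = 0.0406), the one member call between genotypes within a stage under the alternatives run. In that fit 12.7% of the 12233 genes tested were called, so 1 of the members is near the share of all genes.

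**Figure D4:**
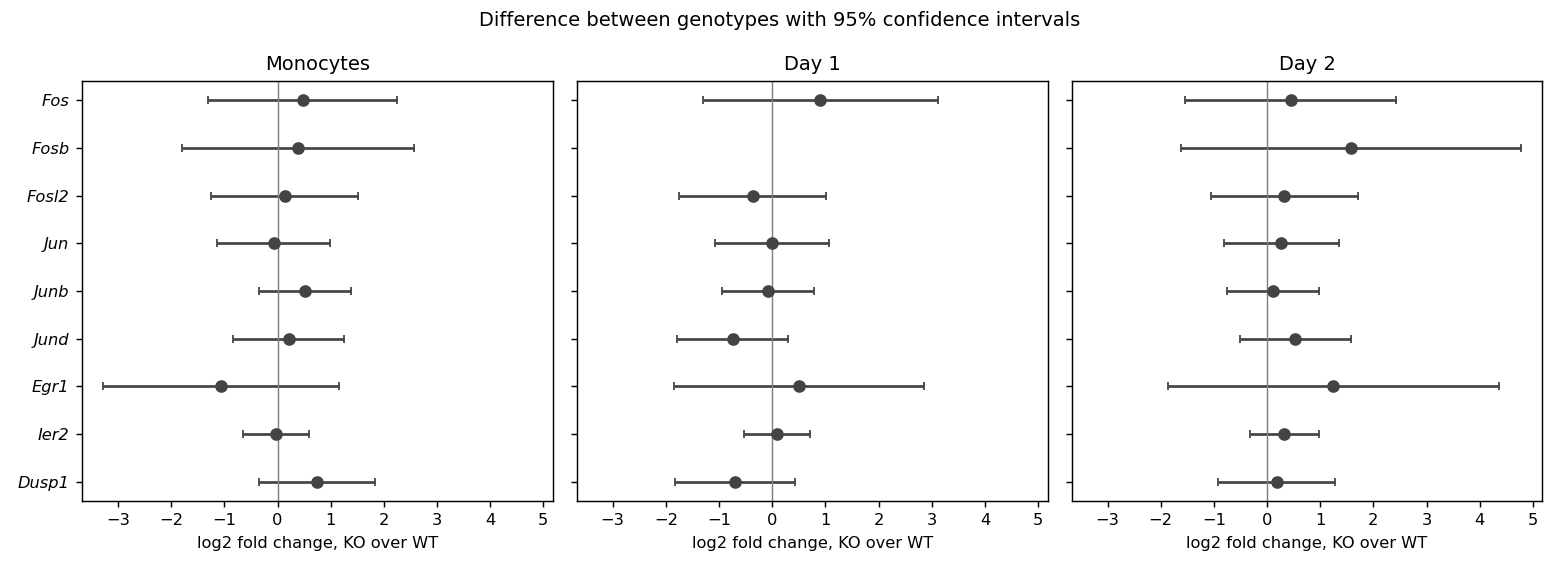
Log2 fold change of KO over WT with 95% confidence intervals for the tested genes in monocytes, at day 1 and at day 2. Each interval includes 0, the narrowest are those of Ier2, and Fosb at day 1 is not drawn, since its libraries held 1 read in all.

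Change with culture was also compared between genotypes. In the difference of the changes from monocytes to day 1, 0 of the 9 members and 0% of all genes passed, and to day 2 0 members and 0.0285% of all genes. Unadjusted, 400 and 478 genes had a p under 0.05. The member with the smallest unadjusted p was Dusp1, whose fall to day 1 was 1.44 ± 0.71 deeper in KO on the log2 scale (edgeR adjusted p = 1.00). Without each of the 8 libraries compared in turn, this Dusp1 difference (KO minus WT) ran from -2.59 to -0.81. Comparisons with a shared set of monocyte libraries are not independent: day 1 and day 2 were both set against the same 2 libraries of each genotype.

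The 22 other immediate early genes listed for comparison changed in both directions. In WT, 8 fell and 5 rose at day 1, and 9 fell and 7 rose at day 2, with medians of -0.49 and -0.19. In KO the counts were 8 and 4 at day 1 and 6 and 5 at day 2. For this and the lists that follow, the shares of all genes called in either direction were 21.5% and 22.6% in WT and 13.8% and 17.5% in KO, at day 1 and day 2. Nr4a1, a receptor gene of the same family as Nr4a3, had a log2 fold change of -9.29 ± 1.13 at day 1 (edgeR adjusted p = 0.000611) and -8.90 ± 1.13 at day 2 (adjusted p = 0.000463) in WT. It stood at 825, 111, 703 and 277 CPM in the monocyte libraries and at no more than 2.78 CPM in culture. Zfp36, which codes for an mRNA-destabilising protein, had -3.59 ± 0.53 at day 2 in KO (adjusted p = 0.00133). Its relative Zfp36l1 rose, with 6.83 ± 0.69 at day 1 (adjusted p = 0.000248) and 7.98 ± 0.72 at day 2 (adjusted p = 6.90e-05) in WT. Ier3 rose by 3.91 ± 0.39 at day 1 (adjusted p = 0.000232), Gadd45b by 3.42 ± 0.40 at day 2 (adjusted p = 0.000312) in WT, and Myc by 3.86 ± 0.51 at day 1 in KO (adjusted p = 0.00133). Btg1 and Pim1, which are among the highest of the list, had -1.05 (adjusted p = 0.0977) and 1.09 (adjusted p = 0.140) at day 1 in WT.

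**Figure D5:**
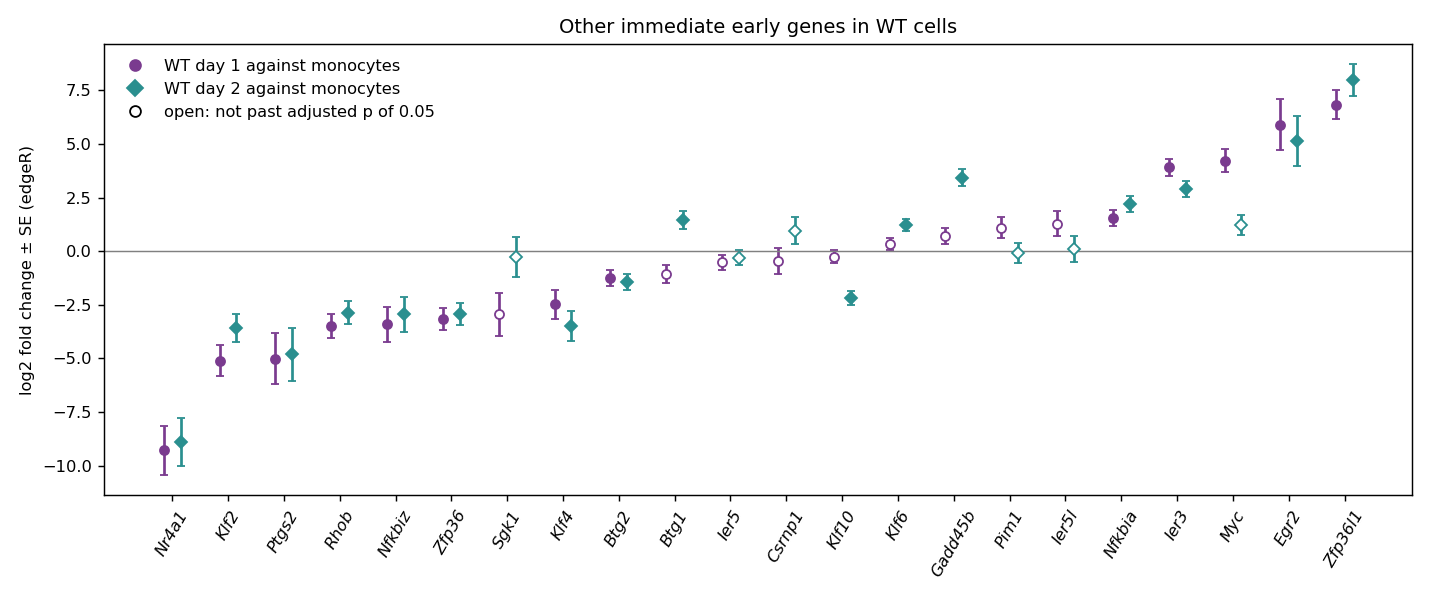
Log2 fold change from monocytes with its standard error for the 22 other immediate early genes in WT at day 1 (circles) and day 2 (diamonds), ordered by the day 1 value; filled symbols passed an adjusted p of 0.05. At day 1, 8 filled circles lie below 0, Nr4a1 lowest at -9.29, and 5 above, Zfp36l1 highest at 6.83.

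Calls among the other AP-1 subunits came at about the rate of all genes at day 1 in WT, below it at day 2 in WT and above it in KO. Of 13 other AP-1 subunits, 3 rose and 0 fell at day 1 and 2 rose and 0 fell at day 2 in WT. In KO the counts were 3 and 0 and then 3 and 1. Of all genes 21.5%, 22.6%, 13.8% and 17.5% were called in the same order. The list was not tested, and so few calls are no result about it. Maff, a small MAF protein gene, rose by 4.68 ± 0.97 (edgeR adjusted p = 0.00767) and Batf3, a partner of JUN proteins in dendritic cells, by 4.08 ± 0.91 (adjusted p = 0.0108) at day 1 in WT. Fosl1 had 0 reads in both WT monocyte libraries and stood at 5.29 and 3.92 CPM at day 1 (adjusted p = 0.0180). In KO it stood at 0 and 0.21 CPM in monocytes and at 0.35 and 4.49 CPM at day 1 (adjusted p = 0.0893). Atf3, a stress-induced relative, did not pass in any of the 4 comparisons with monocytes (-0.64, adjusted p = 0.553, at day 1 in WT). Maf, also on the list of macrophage markers, passed in KO at day 1 (2.34 ± 0.65, adjusted p = 0.0375). It stood at 9.26 ± 3.87 CPM (SD, n = 2) in KO monocytes and at 77.7 and 16.5 CPM at KO day 1, the higher value in replicate 1, which stood apart and held 1281 CPM of summed macrophage markers against 738 to 869 CPM in the other day 1 libraries. The part of that library in the Maf value was not tested. In KO Batf2 rose by 2.47 ± 0.67 at day 2 (adjusted p = 0.0291).

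Egr2, a relative of Egr1, was higher in the cultures where Egr1 was lower. Among the EGR partners and repressors 2 of 3 tested rose in every comparison with monocytes and 0 fell. Egr2 itself is 1 of these 2. It is also counted among the other immediate early genes, so the counts of the 2 lists are not separate. Egr2 stood at 7.89, 0, 3.07 and 1.35 CPM in the monocyte libraries and at 84.0 to 251 CPM in the cultured ones, with 5.89 ± 1.19 at day 1 in WT (edgeR adjusted p = 0.00690). Nab2, a repressor that binds EGR proteins, had 2.96 ± 0.47 at day 1 in WT (adjusted p = 0.00200) and Nab1, of the same family, 0.35 (adjusted p = 0.426).

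Dusp16 was higher in culture in both genotypes, where Dusp1 was lower, and Dusp5 did not pass at day 1 in KO. Of 11 other dual-specificity phosphatases, 2 rose and 0 fell at day 1 and 3 rose and 3 fell at day 2 in WT, and in KO 1 and 0 and then 4 and 3. Dusp16, whose product acts on JNK, had 4.08 ± 0.36 at day 1 (edgeR adjusted p = 0.0001004) and 5.93 ± 0.38 at day 2 (adjusted p = 1.80e-05) in WT. Dusp5, whose product acts on ERK in the nucleus, had 2.04 ± 0.45 (adjusted p = 0.0107) and 5.19 ± 0.50 (adjusted p = 0.000107) in WT. In KO it stood at 14.2 and 8.44 CPM in monocytes and at 11.6 and 15.4 CPM at day 1 (0.26, adjusted p = 0.738), and at day 2 it had 2.03 ± 0.44 (adjusted p = 0.00989). Dusp7 fell by 2.80 ± 0.55 at day 2 in WT (adjusted p = 0.00528), and Dusp11 and Dusp3 did not pass in any of the 4 comparisons.

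Kinases and factors that drive immediate early transcription were called at about the rate of all genes at day 1 in WT and above it in the other 3 comparisons, a description with no test of the list. Of 26 genes for SRF, its partners and MAP kinases, 2 rose and 3 fell at day 1 and 3 rose and 7 fell at day 2 in WT, and in KO 2 and 4 and then 3 and 6, against 21.5%, 22.6%, 13.8% and 17.5% of all genes in the same order. Mrtfb, a coactivator of SRF, had 3.11 ± 0.40 at day 1 in WT (edgeR adjusted p = 0.000808), Elk1, a ternary complex factor, 1.58 ± 0.26 (adjusted p = 0.00252) and Mef2c -3.51 ± 0.47 (adjusted p = 0.000879). Crem had 3.97 ± 0.73 at day 2 (adjusted p = 0.00356). Of 13 heat shock genes tested, 6 rose and 0 fell at day 1 in each genotype, with Hsph1 at 2.31 ± 0.34 (adjusted p = 0.00141), Hspd1 at 2.30 ± 0.35 (adjusted p = 0.00177) and Hspa5 at 1.76 ± 0.29 (adjusted p = 0.00266) in WT. At day 2 the counts were 2 and 0 in WT and 1 and 1 in KO, with Hsp90ab1 at 1.01 ± 0.30 in WT (adjusted p = 0.0343) and Dnajb1 at -0.90 ± 0.23 in KO (adjusted p = 0.0238). Hspa8, the highest of them that did not pass, had 0.08 (adjusted p = 0.897) at day 1 in WT.

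The genes whose profile lay nearest to Fos over the 12 libraries were Nr4a1, Cx3cr1, Arhgef37, Hpgd and Cyp39a1. Nearness is the root-mean-square distance between centred log2 CPM profiles, and it is a description with no test. The candidates were 9550 genes whose mean reached 5 CPM or more, with the members and predicted or clone-named genes left out. The distances were 1.19, 1.29, 1.33, 1.40 and 1.40 on the log2 scale, against a median of 4.31 over all candidates. Cx3cr1, the fractalkine receptor gene of monocytes, had a mean of 337 CPM in WT monocytes and 0.91 CPM at WT day 1. The nearest other member was Fosb at 1.78, and 9 candidates lay nearer to Fos than it did. Of the members, Ier2 was nearest to Jun at 0.69, with 138 other candidates nearer.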

How the data were processed

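Members and gene lists were chosen with earlier results of these data known. Poly(A) libraries were made from 20 ng of total RNA with a stranded kit and 16 PCR cycles, per the labels' protocols. Trimmomatic 0.35, STAR 2.5.1b and GRCm38 are named in the submitters' processing notes, and no source used here names the annotation release. The authors deposited raw read counts for each gene, and the reverse-stranded column (column 4) was used. Rows for unmapped, multimapping, ambiguous and unassigned reads stayed out of library sizes and tests. Of 47643 gene IDs, 47224 matched a symbol in GENCODE M21.

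Counts were scaled by TMM, filtered with filterByExpr (14034 genes) and fitted with edgeR 4.0.16 (quasi-likelihood, robust, 1 mean per group, 12 libraries, R 4.3.3). P-values were adjusted by Benjamini-Hochberg over all genes tested, with a threshold of 0.05, and measure the spread between 2 libraries per group. Standard errors are the log2 fold change divided by the square root of F. The script was tested on simulated counts. Beside the members, each list's genes are named by rule: up to 3 with the lowest adjusted p per comparison, and up to 2 with the highest mean that did not pass. Alternatives were other scalings, no low-count filter, DESeq2 1.42.0, unstranded counts, replicate blocks, fits on only the groups compared, each library left out, and both libraries that stood apart left out. A comparison of the change from day 1 to day 2 between genotypes was added after the data were seen. Same-numbered replicates deviated together from their group means (correlation over genes 0.236 in monocytes, 0.194 at day 1 and 0.657 at day 2), so the numbers were taken to pair the genotypes within a stage. By the file dates a number also ties monocytes to day 1, while day 2 shares only the number with the other stages. The labels of day 1 replicate 2 give 1 day, and its file names in both genotypes give 16 h. No 2 libraries agreed within sampling noise (smallest chi-square per degree of freedom 11.1). Intervals on read ratios cover counting error only.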

Additional observations from a re-analysis of the deposited data

Results flagged for a closer look

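For 3 members the KO libraries lay on one side of WT in both replicate pairs at one stage and on the other side in both pairs at another. None of the 3 differences passed edgeR's test. The share of all genes with such a pattern was not counted, so the number of members that show it is no result about the set. Dusp1 was higher in KO than in WT in both monocyte pairs and lower in both day 1 pairs, and its change from monocytes to day 1 differed between genotypes by -1.44 ± 0.71 (log2, KO minus WT, SE, edgeR adjusted p = 1.00). Egr1 was lower in KO in both monocyte pairs and higher in both day 2 pairs, and its change differed by 2.31 ± 1.73 (edgeR adjusted p = 1.00). Fosl2 was lower in KO in both day 1 pairs and higher in both day 2 pairs, and its change from day 1 to day 2 differed by 0.69 ± 0.88 (edgeR adjusted p = 1.00). The last comparison was chosen after the values were seen. For Dusp1 the log2 ratios of KO over WT, with 0.1 CPM added, were 0.27 and 1.70 in the monocyte pairs of replicates 1 and 2. At day 1 they were -1.29 and -0.26. The larger ratio at each stage came from the pair that holds a library that stood apart.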

How the results depend on the processing

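Over the alternatives, 1511 single-gene values had the same direction and side of the threshold as reported, 35 newly passed, 93 no longer passed and 61 changed sign. With no low-count filter, members called numbered 6 in WT day 2 against day 1, 8 in KO day 1 and 5 in KO day 2 against day 1, in place of 2, 5 and 2, where 9.36%, 12% and 5.51% of all genes were called. Fitted on only the groups compared, they numbered 4 in WT day 1 and 0 in KO day 2 against day 1 (11.8% and 0.16% of all genes), and with a replicate block by number as well 1 (Jund) between genotypes at day 2 (12.7%). The cause was not tested.

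Of the values that changed sign, Jun in KO against WT at day 1 (-0.01) became 0.0155 with no filter, 0.00791 with a replicate block by number, 0.0266 by experiment, 0.00660 on only the groups compared, 0.0243 with both and 0.0354 with unstranded counts. Jun between genotypes in monocytes (-0.08) became 0.0807 with a replicate block by experiment and 0.132 on only the groups compared with a block by number, where Fosl2 in WT day 2 became 0.184. The block by experiment gave 0.0116 for Fosl2 in KO day 1. It could not be estimated for day 2 against monocytes or day 1, since no experiment holds both. Without both libraries that stood apart, Fosl2 was -0.474 in WT day 1 and -0.0373 in KO day 2 against day 1. The genotype difference was then -0.140 (Fos), -0.390 (Fosb), -0.636 (Fosl2) and -0.227 (Jund) in monocytes and -0.243 (Ier2) at day 1. None of these values passed the threshold. On all libraries the replicate block changed 1 member call, Jun in KO day 1. On only the groups compared with the block by number, Fosb and Egr1 in KO day 2 and Junb and Jund in WT day 2 were lost (adjusted p = 0.0524 to 0.135), and Jun passed in KO day 1 (-1.52, 0.0132) and in day 2 against day 1 (-1.62, 0.0354 in WT and -1.34, 0.0395 in KO), where the numbers are not shared experiments.

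Leaving out each library in turn, members called ranged from 4 to 7 in WT day 1, 3 to 8 in WT day 2, 0 to 3 in WT day 2 against day 1, 3 to 8 in KO day 2 and 0 to 3 in KO day 2 against day 1. The share of all genes called also moved widely over the same fits in each of these comparisons. The ranges of member counts are therefore not particular to the members. The log2 fold change of Fosl2 ranged from -0.474 to 2.19 in WT day 1, -1.09 to 1.56 in WT day 2, -0.544 to 0.362 in KO day 1, -0.495 to 0.423 in KO day 2 and -0.0646 to 0.160 in KO day 2 against day 1. Between day 1 and day 2, Fos ranged from -0.773 to 2.92, Junb from -0.310 to 0.0534 and Jund from -0.761 to 0.0108 in WT, and Junb from -0.0867 to 0.170 in KO. Between genotypes in monocytes the ranges were -0.150 to 1.65 (Fos), -0.989 to 2.28 (Fosb), -0.644 to 1.99 (Fosl2), -0.690 to 1.06 (Jun), -0.00777 to 1.39 (Junb), -0.237 to 0.891 (Jund), -3.26 to 1.44 (Egr1) and -0.0575 to 0.0305 (Ier2). At day 1 they were -0.281 to 0.356 (Jun), -0.234 to 0.128 (Junb), -0.0380 to 1.43 (Egr1) and -0.215 to 0.341 (Ier2), and at day 2 -0.425 to 3.28 (Fos), -1.50 to 3.59 (Fosb), -0.0125 to 0.244 (Junb) and -0.0533 to 0.470 (Dusp1). A group left with 1 library was assumed to vary like the others. Over all genes, the number called between genotypes ran from 0 to 137 in monocytes, 0 to 140 at day 1 and 1 to 1558 at day 2 over the alternatives (reported: 0, 0 and 14), and DESeq2 called 84 at day 2. Few reads lie behind Fosb (0, 1, 8 and 31 in WT day 1, KO day 1, WT day 2 and KO day 2), Egr3 (0, 4, 0 and 6) and Egr1 at day 2 (7 in WT and 19 in KO).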
